A study of Mus musculus with 6 samples.

Results

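The 10 genes described here set the pace of the G1 phase of the cell cycle: the D-type cyclins Ccnd1, Ccnd2 and Ccnd3, their kinases Cdk4 and Cdk6, the kinase inhibitors Cdkn1a, Cdkn1b, Cdkn2a and Cdkn2c, and the retinoblastoma gene Rb1. They were taken by name from the 21887 mouse protein-coding genes with a RefSeq span, and each was examined over its span plus 5 kb on either side. In these 10 intervals the peak lists held 40 merged regions of 5-hydroxymethylcytosine (5hmC), of 174070 in the genome. A merged region joins all peaks of the 4 libraries that share at least 1 bp.

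The base 5hmC is made from 5-methylcytosine by the TET enzymes, of which Tet2 is often mutated in myeloid leukaemia. It was mapped by immunoprecipitation of sheared genomic DNA with a polyclonal rabbit antibody and sequencing. All libraries came from Kit-enriched bone marrow cells of Tet2fl/fl;CreER mice (strain C57BL/6) into which a retrovirus had carried GFP and AML1-ETO, a fusion protein found in acute myeloid leukaemia. CreER is a Cre recombinase that acts once 4-hydroxytamoxifen (4-OHT) binds it. The sources used here give neither the promoter that drives it nor the age and sex of the mice. Flox cells (2 libraries, labelled Tet2fl/fl) were given ethanol, and KO cells (2 libraries, labelled Tet2-/-) were given 200 nM 4-OHT over 2 passages (4 days). Both were grown with SCF, IL-3 and IL-6, taken at passage 5 and sorted for GFP+ cells that were CD16/32+ and lacked CD11b and Gr1, a gate for immature myeloid cells. The question of the comparison is where 5hmC is found once Tet2 is lost. Since flox cells saw no 4-OHT, loss of Tet2, the drug itself and the activity of Cre cannot be told apart. Peaks in DNA do not measure the surface proteins of the sort, so the labelled cell type could not be checked here.

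The files were lists of 116539 to 122101 peaks a library, covering 110.3 to 113.3 Mb. The number of reads behind them was unknown. Nothing in the labels says that the 2 libraries of a group came from separate cultures, so tests measure only the spread between these 4 libraries, which may be technical. An IgG control and an input library had no file here and were not analysed.

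A D-type cyclin bound to Cdk4 or Cdk6 phosphorylates the Rb1 protein, which then releases E2F transcription factors and lets the cell enter S phase. Inhibitors of the INK4 family (products of Cdkn2a and Cdkn2c) bind the 2 kinases, and those of the CIP/KIP family (Cdkn1a for p21, Cdkn1b for p27) bind cyclin-kinase complexes. Cdkn2a also encodes, from a separate first exon, the protein p19Arf, which stabilises p53. In blood cells Cdk6 and Ccnd3 serve the growth of progenitors, and the inhibitors restrain it. In many tissues 5hmC is found in bodies and distal elements of active genes and is low at unmethylated CG-rich starts.

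Start windows were to hand for 7 of the 10 genes, and among these Cdkn1a alone had called bases in its windows. The upstream sequences of 5 starts are shown so that those with and without a peak can be read side by side. Each is the 250 bases before an annotated start, 5′ to 3′ on the gene's strand, from RefSeq on GRCm38.p6. Capitals mark each CG, the dinucleotide at which most 5-methylcytosine and 5hmC sits, and in the first sequence also a 14-base match to CATGNNNNNNCATG. The first, before the upstream start of Cdkn1a (chr17:29090729-29090978, plus strand), is shown because peaks of all 4 libraries reached into it. The second, before the downstream start of Cdkn1a (chr17:29093519-29093768, plus strand), was touched by a peak of flox replicate 2 alone. The other 3 had no peak in any library: Cdkn1b (chr6:134920151-134920400, plus strand), the downstream start of Cdkn2a that gives p16Ink4a (chr4:89282193-89282442, minus strand) and Cdk4 (chr10:127063285-127063534, plus strand).
Cdkn1a upstream start: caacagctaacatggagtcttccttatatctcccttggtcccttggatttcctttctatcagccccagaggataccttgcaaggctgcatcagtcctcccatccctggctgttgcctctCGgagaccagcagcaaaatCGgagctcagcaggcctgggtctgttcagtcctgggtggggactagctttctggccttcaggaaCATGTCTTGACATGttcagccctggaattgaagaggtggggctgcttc
Cdkn1a downstream start: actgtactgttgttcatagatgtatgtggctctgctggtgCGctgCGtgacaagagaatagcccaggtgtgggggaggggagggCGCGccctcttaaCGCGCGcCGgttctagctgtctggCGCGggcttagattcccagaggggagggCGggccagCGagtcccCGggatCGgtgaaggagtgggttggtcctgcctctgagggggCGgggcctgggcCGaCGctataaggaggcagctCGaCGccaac
Cdkn1b start: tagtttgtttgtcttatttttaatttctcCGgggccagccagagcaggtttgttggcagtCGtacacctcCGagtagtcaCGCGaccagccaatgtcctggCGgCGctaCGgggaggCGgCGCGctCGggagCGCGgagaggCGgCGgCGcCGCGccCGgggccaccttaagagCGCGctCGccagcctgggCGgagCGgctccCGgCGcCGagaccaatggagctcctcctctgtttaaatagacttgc
Cdkn2a downstream start: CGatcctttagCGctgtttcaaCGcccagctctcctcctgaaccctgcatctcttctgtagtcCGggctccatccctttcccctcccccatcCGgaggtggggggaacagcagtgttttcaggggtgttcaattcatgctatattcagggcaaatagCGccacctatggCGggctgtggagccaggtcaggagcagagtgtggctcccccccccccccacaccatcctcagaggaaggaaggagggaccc
Cdk4 start: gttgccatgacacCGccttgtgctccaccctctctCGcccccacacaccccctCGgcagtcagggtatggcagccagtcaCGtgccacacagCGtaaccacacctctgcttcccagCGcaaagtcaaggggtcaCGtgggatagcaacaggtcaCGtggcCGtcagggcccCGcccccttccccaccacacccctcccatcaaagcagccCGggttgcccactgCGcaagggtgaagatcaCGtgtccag

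The upstream start of Cdkn1a had 2 CG in its 250 bases, fewer than any other of the 11 windows of this kind at the G1 genes. The downstream start had 19, Cdkn1b 28, the downstream start of Cdkn2a 7 and Cdk4 13. The start of p19Arf in the same gene had 40, and the 2 starts of Cdkn2c had 6 and 29. The windows came from the 7 of the 10 genes with an entry in the RefSeq start table, which were Ccnd3, Cdk4, Cdk6 and the 4 inhibitors. Of the 11, 9 held no called base, 1 was reached by 1 library and 1 by all 4, counts too small to be told from the background. Over all 32841 annotated starts with a 250-base window, 13.8% were reached by a peak of at least 1 library, 3.96% by exactly 1 and 4.86% by all 4. Windows with 0 to 4 CG, as at the upstream start of Cdkn1a, were reached by all 4 libraries in 3.65% of cases, the lowest share, those with 5 to 14 CG in 5.75% and those with 15 or more in 5.9%.

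In the window before the upstream start of Cdkn1a the match to CATGNNNNNNCATG lay at chr17:29090931-29090944, 48 to 35 bases before the start. This motif is the paired core of the binding site of p53, which is known to activate Cdkn1a, and it reads the same on both strands. It was searched for after the sequence had been read. It is found in 0.49% of all 250-base windows and in none of the other 10 windows at the G1 genes. Peaks covered 0 of its 14 bases in flox replicate 1, 5 in flox replicate 2, 14 in KO replicate 1 and 0 in KO replicate 2, so 2 of the 4 peaks reached it. The sequence TGTGGT, the core bound by RUNX factors such as AML1, was found in 14.0% of windows when both strands were searched. Among the G1 genes it matched in the window of Cdk4 only, at 2 places and both times as ACCACA. The 2 motifs share no bases. A match describes letters, not binding.

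**Figure D1:**
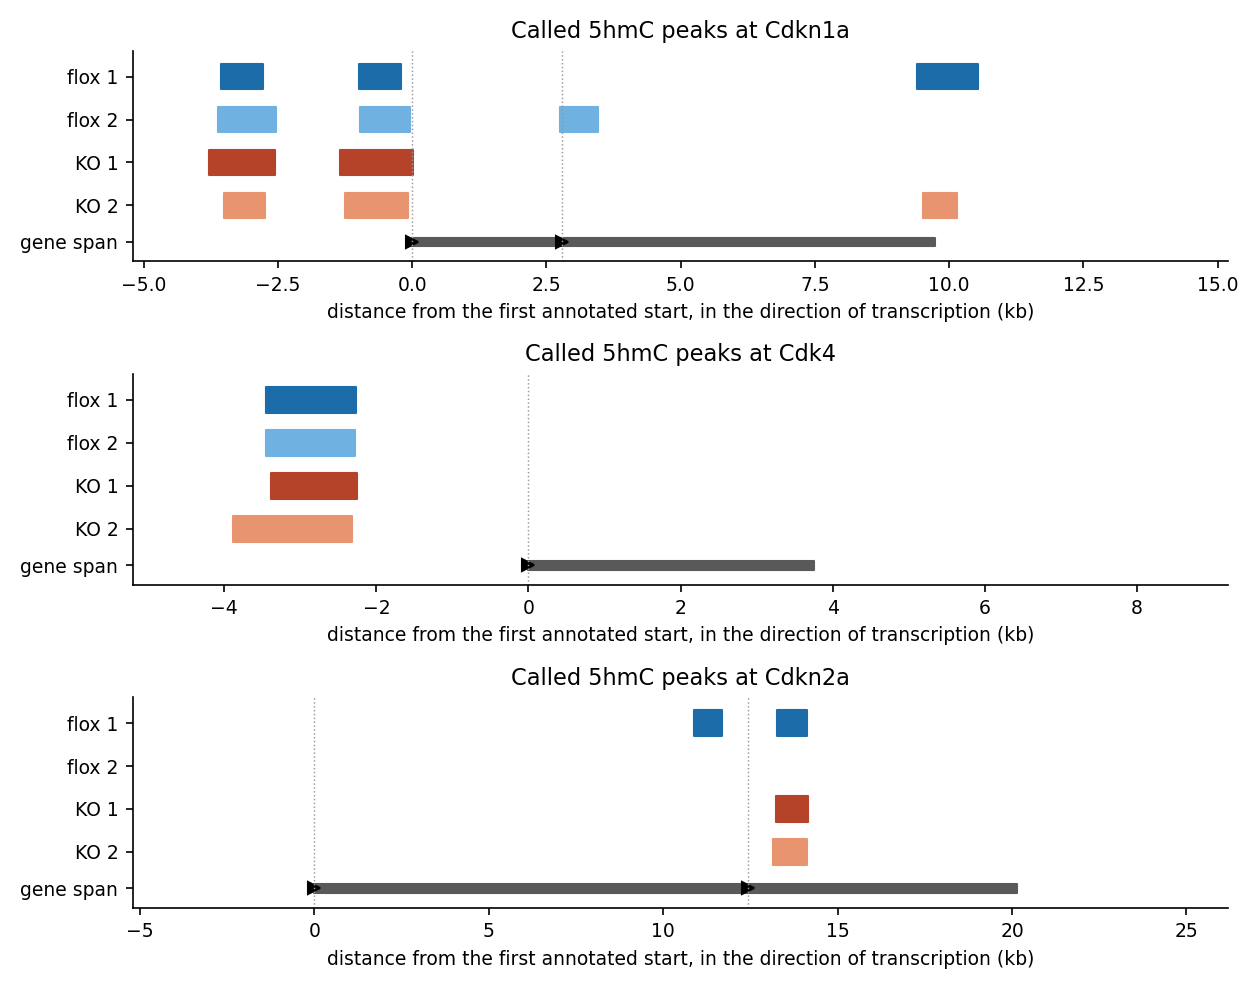
Called 5hmC peaks (bars) of flox replicates 1 and 2 and KO replicates 1 and 2 at Cdkn1a, Cdk4 and Cdkn2a, against the distance from the first annotated start in kb, in the direction of transcription. Grey bars are gene spans and triangles with dotted lines are annotated starts. All 4 libraries have a peak that ends at or near the upstream start of Cdkn1a and another further upstream, all 4 have a peak before Cdk4, and the peaks of Cdkn2a lie around its downstream start.

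Cdkn1a, which encodes p21 (chromosome 17, 29090979 to 29100722), carried the most called 5hmC of the 10 genes per kb of interval, flanks included. Its called length was 2707 and 2727 bp in flox replicates 1 and 2, against 2588 and 2575 bp in KO replicates 1 and 2. Scaled to the same genome-wide total in each library, this was 131 to 139 bp per kb of interval, higher than in 92.5% of all genes. Each KO library was lower than each flox library, by little (log2 difference -0.05, SE 0.21, limma adjusted p = 0.980 over all genes), and the difference was 0.09 when peaks scored under 100 were left out. The region at the upstream start (29089628 to 29090996) was called over 778 and 922 bp in flox against 1369 and 1173 bp in KO, so it was wider in both KO libraries. Its peaks ended 205 and 44 bp before the start in flox replicates 1 and 2, 17 bp past it in KO replicate 1 and 80 bp before it in KO replicate 2. A further region called in all 4 libraries, 2531 bp before the start (29087204 to 29088448), had low scores of 55.16 and 68.17 in flox against 60.86 and 65.65 in KO. The score is the authors' own value for a peak within its list, with a lowest value of 50, and is used here only to describe and rank peaks. At the downstream start, flox replicate 2 alone had a peak of 714 bp (29093724 to 29094437, score 101.77). At the far end of the gene a region (29100375 to 29101512) was called in flox replicate 1 and KO replicate 2. Much of this called sequence lay outside the gene span. The region at the upstream start had 1351 of its 1369 bp outside it, and the one at the far end 790 of its 1138 bp. Without the flanks, Cdkn1a had too little called length to be tested.

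Cdkn1b, which encodes p27 (chromosome 6, 134920401 to 134925525), and Cdkn2c, which encodes p18 (chromosome 4, 109660876 to 109666756), had no called base in any library. The same held for the cyclin gene Ccnd1 (chromosome 7, 144929931 to 144939831). Of all protein-coding genes, 22.9% had no called base in any library, and among genes whose interval was within 1.2-fold of theirs in length this share was 33.7% for Cdkn1b, 32.8% for Cdkn2c and 26.4% for Ccnd1. Just outside the 5 kb, Cdkn1b had a region called in all 4 libraries at 7130 bp from its span (134911993 to 134913271). Cdkn2c had one called in 1 library at 7240 bp and one called in all 4 at 10115 bp. At Ccnd1 the first region of any kind was 23272 bp away, in 1 library, and the first called in all 4 was 31400 bp away. A count of 0 here says only that no peak passed the authors' threshold.

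Cdkn2a (chromosome 4, 89274473 to 89294619) had peaks around the start of p16Ink4a and none at that of p19Arf. Its called length was 1656 and 0 bp in flox against 917 and 973 bp in KO. The flox libraries thus stood on either side of both KO libraries, and the log2 difference of 0.49 had an SE of 0.75 (limma adjusted p = 0.940). Without flox replicate 2 it was -0.55. The region at 89280465 to 89281463 began 729 bp inside the gene from the p16Ink4a start and was called in flox replicate 1 (score 100.04) and both KO libraries (64.28 and 57.05), but not in flox replicate 2. The region at 89282945 to 89283727 ended 753 bp before that start and was called in flox replicate 1 alone (score 81.39). No region of Cdkn2a was called in all 4 libraries, and the nearest such region was 16425 bp from the gene.

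Cdk4, the kinase partner of the D-type cyclins (chromosome 10, 127063535 to 127067288), had 1 region, and it was among the highest scored of the 40. It lay 2257 bp before the start (127059657 to 127061278). It also reached into the higher-coordinate end of the span of Marchf9, a membrane E3 ubiquitin ligase gene whose strand was not used here. It therefore cannot be assigned to one of the 2 genes. It was called over 1174 and 1173 bp in flox against 1135 and 1563 bp in KO, with scores of 312.06 and 225.81 in flox against 347.68 and 339.48 in KO. These scores exceeded 90.0% to 95.5% of the peaks in each library's own list. The 2 groups overlapped, and the log2 difference was 0.14 (SE 0.29, 95% interval -0.57 to 0.86, limma adjusted p = 0.954), or -0.02 without KO replicate 2. The body of Cdk4 held no called base in any library.

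**Figure D2:**
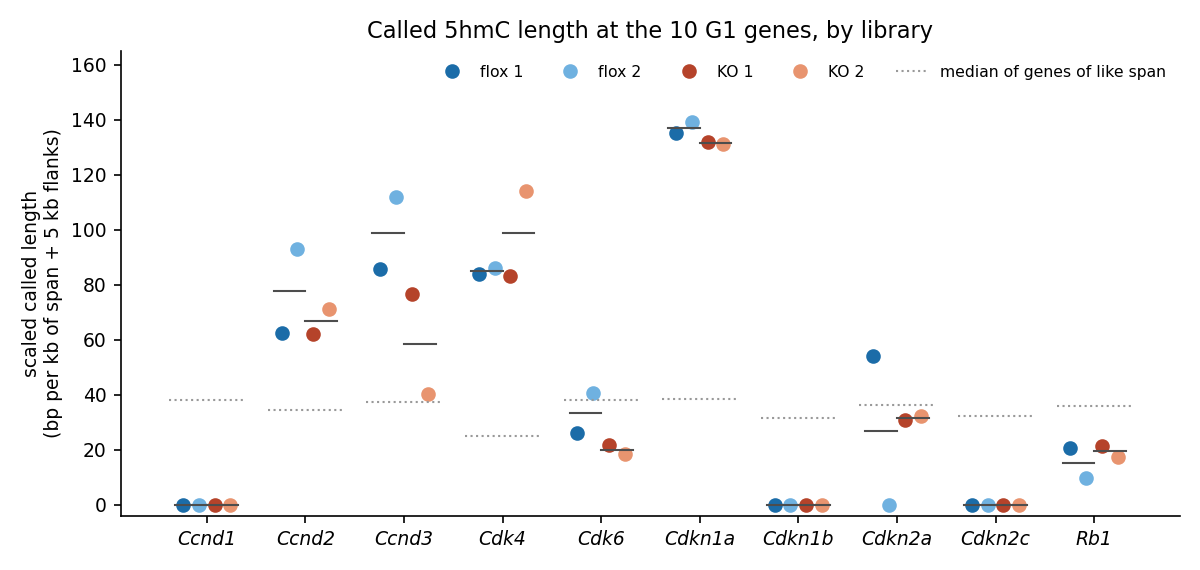
Scaled called 5hmC length in bp per kb of gene span plus 5 kb flanks at each of the 10 G1 genes, 1 point a library, with short lines at the mean of each group and dotted lines at the median of all genes of like span. Cdkn1a is highest at 131 to 139 bp per kb, Ccnd1, Cdkn1b and Cdkn2c are at 0 in all 4 libraries, and the flox points of Ccnd3 and Cdk6 lie above their KO points.

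Cdk6, the other kinase of this pair (chromosome 5, 3341004 to 3531008), and the cyclin gene Ccnd3 (chromosome 17, 47505051 to 47599689) held 24 of the 40 regions and had the lowest log2 differences of the 7 genes that could be tested. Called length at Ccnd3 was 9118 and 11581 bp in flox replicates 1 and 2, against 7924 and 4221 bp in KO replicates 1 and 2. At Cdk6 it was 5269 and 8064 bp in flox against 4318 and 3647 bp in KO. At both genes each KO library lay below each flox library. Scaled, Ccnd3 had 10317 ± 1932 bp in flox against 6110 ± 2664 bp in KO, and Cdk6 had 6654 ± 2095 and 4004 ± 498 bp (SD, n = 2 libraries). The log2 difference was -0.76 at Ccnd3 (SE 0.31, 95% interval -1.55 to 0.03) and -0.64 at Cdk6 (SE 0.26, -1.28 to 0.0033). Neither passed limma's test over all genes, with adjusted p = 0.815 and 0.813 and unadjusted p = 0.0555 and 0.0508. In bulk DNA, fewer cells that carry the mark, less of it per cell and peaks missed for lack of reads cannot be told apart. The Ccnd3 difference shrank to -0.34 without KO replicate 2 and grew to -1.18 without KO replicate 1. That of Cdk6 shrank to -0.34 without flox replicate 2. When peaks scored under 100 were left out it was -0.0011, and with the top 50000 peaks by score in every list it was 0.03, against -0.66 and -1.10 at Ccnd3.

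Ccnd3 had 15 regions, all inside the gene. Of these, 4 (26.7%) were called in all 4 libraries, against 39.5% of all merged regions. The 4 regions called in every library covered 4349 and 3629 bp in flox against 3953 and 3318 bp in KO. The other 11 covered 4769 and 7952 bp in flox against 3971 and 903 bp in KO. Flox replicate 1 called 5 of these 11, flox replicate 2 called 8, KO replicate 1 called 4 and KO replicate 2 called 1. The groups overlapped in the constant regions and were apart in the others, but a region missing from a KO library is by definition not constant, so this split partly fixes where a difference falls. The first constant region (47509069 to 47510490) began 4018 bp inside the gene from its upstream start and had scores of 198.95 and 266.48 in flox against 150.66 and 124.64 in KO. The constant region at 47573469 to 47575011 was narrower in both KO libraries, at 593 and 950 bp against 1400 and 1442 bp in flox. That at 47557521 to 47558374 was wider in both, at 854 and 782 bp against 671 and 757 bp. The fourth, at 47578790 to 47580008, was called over 1219 and 721 bp in flox against 1084 and 578 bp in KO.

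The single region of the 40 that both flox libraries called and neither KO library did lay in Ccnd3 at 47523035 to 47523891. It covered 775 bp with a score of 68.86 in flox replicate 1 and 857 bp with a score of 108.39 in flox replicate 2, which exceeded 26.2% and 60.3% of the peaks of their lists. No region had the reverse pattern. Genome-wide, 2.96% of merged regions were called in both flox libraries alone and 3.0% in both KO libraries alone, so 1 and 0 of 40 were near the background. Of the 4 regions of Ccnd3 called in 2 or 3 libraries with both groups among them, one was called in replicate 1 of each group (47526586 to 47528533, 1151 bp in flox and 1379 bp in KO). Another was missing in KO replicate 2 alone (47588257 to 47590018, 1293 and 1424 bp in flox and 853 bp in KO replicate 1). The remaining 2 were called in flox replicate 2 with one or both KO libraries.

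Cdk6 had 9 regions, 3 of them called in every library. The nearest of the 9 to its annotated start lay 18329 bp inside the gene from it, and in each library a peak outside the 5 kb flank was nearer, 13508 to 13747 bp before the start. The strongest was in the gene at 3380666 to 3382252, with scores of 306.10 and 515.30 in flox against 411.83 and 320.90 in KO, above 94.1% of the peaks in each list. It was called over 1567 and 1535 bp in flox against 791 and 978 bp in KO, so both KO libraries called a shorter stretch. Each score belongs to its own list and the number of reads was unknown, so the scores do not compare enrichment between libraries. The region at 3362222 to 3363605 covered 961 and 1181 bp in flox against 713 and 1100 bp in KO. The third lay 3640 bp beyond the far end of the gene (3534648 to 3535690), with 1005 and 836 bp in flox against 834 and 807 bp in KO. The 3 constant regions covered 3533 and 3552 bp in flox against 2338 and 2885 bp in KO. Of the other 6 regions, 4 were called in flox replicate 2 alone, with scores of 54.48 to 93.07. They account for 3409 bp of the called length of that library, and flox replicate 1 called none of them. The region at 3402908 to 3404028, which also lies in the non-coding gene Gm29868, was missing in flox replicate 2 only. That at 3479429 to 3480531 was missing in KO replicate 2 only, with 896 and 1103 bp in flox and 859 bp in KO replicate 1.

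**Figure D3:**
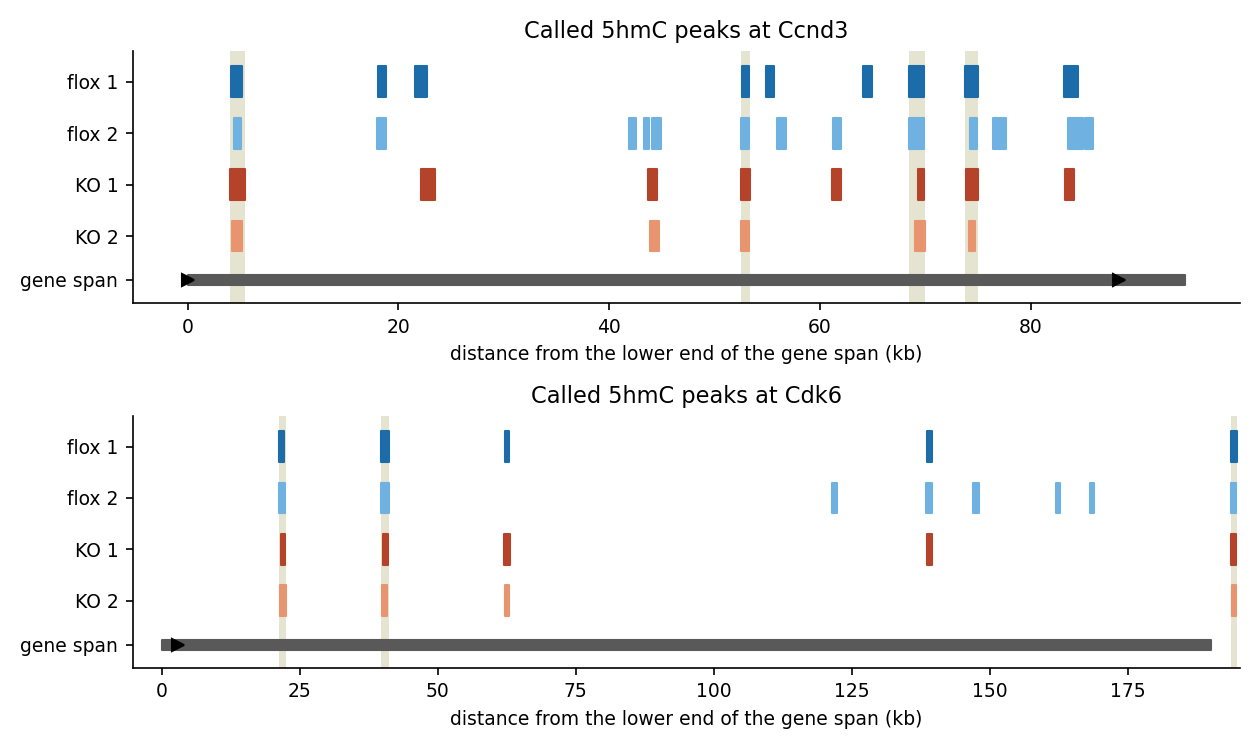
Called 5hmC peaks (coloured bars) of the 4 libraries along Ccnd3 and Cdk6, against the distance in kb from the lower-coordinate end of the gene span; dark grey bars are gene spans, triangles are annotated starts and pale bands are regions called in all 4 libraries. Ccnd3 has 4 such bands and Cdk6 has 3, and most bars outside the bands belong to flox replicate 2 or flox replicate 1.

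Ccnd2, the third D-type cyclin gene (chromosome 6, 127125162 to 127152188), had called lengths of 2350 and 3409 bp in flox against 2278 and 2636 bp in KO. The groups overlapped, with a log2 difference of -0.17 (SE 0.26, 95% interval -0.82 to 0.49, limma adjusted p = 0.942), or 0.08 without flox replicate 2. Its constant region (127142571 to 127144144) covered 1459 and 1574 bp in flox against 1410 and 1126 bp in KO, narrower in both KO libraries, with scores of 186.11 and 192.56 in flox against 126.28 and 168.12 in KO. A region at 127150544 to 127151763, which also lies in the non-coding gene 9330179D12Rik, was called in both flox libraries and KO replicate 2. Per kb of interval Ccnd2 stood at 62.1 to 92.9 bp, above the median of 34.3 bp for genes of like span. Ccnd3 stood at 40.4 to 112 bp per kb, a range that holds all 4 values of Ccnd2, and Ccnd1 at 0.

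Rb1, the substrate of the cyclin D kinases (chromosome 14, 73192858 to 73325951), had called lengths of 3017 and 1359 bp in flox against 3055 and 2480 bp in KO. Flox replicate 2 was the low library, the groups overlapped, and the log2 difference was 0.36 (SE 0.36, 95% interval -0.53 to 1.25, limma adjusted p = 0.889), or -0.08 without flox replicate 2. It had 5 regions in an interval of 143.1 kb, a mean of 17.3 bp per kb, below the median of 35.7 bp for genes of like span. Constant regions at 73265025 to 73266064 and 73300196 to 73301372 covered 719 and 374 bp, and 764 and 985 bp, in flox. In KO they covered 1028 and 568 bp, and 1038 and 1049 bp, so the latter was wider in both KO libraries.

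Ordered by mean scaled called length per kb, the genes ran from Cdkn1a (134 bp) through Cdk4 (91.7), Ccnd3 (78.5), Ccnd2 (72.1), Cdkn2a (29.2) and Cdk6 (26.6) to Rb1 (17.3), with Ccnd1, Cdkn1b and Cdkn2c at 0. In all 4 libraries Cdkn1a lay above every other gene on this measure, which counts the 5 kb flanks. Cdk4, Ccnd3 and Ccnd2 overlapped in their 4 libraries, as did Cdkn2a, Cdk6 and Rb1. Of the 40 regions, 35 lay within a gene span, 2 crossed a gene end and 3 lay in the 5 kb beside a gene. Region lengths ran from 444 to 1948 bp.

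Over the 10 genes, 13 of 40 regions (32.5%) were called in all 4 libraries, against 39.5% of all merged regions. A further 15 (37.5%) were called in 1 library only, against 27.3% genome-wide. Of these 15, 9 belonged to flox replicate 2, 4 to flox replicate 1 and 1 to each KO library. Flox replicate 2 had 4 of its 9 in Ccnd3 and 4 in Cdk6, and flox replicate 1 had 2 of its 4 in Ccnd3. Genome-wide the flox libraries held 50.2% of such single-library regions and the KO libraries 49.8%. The 15 had scores from 50.35 to 101.77, of which the highest exceeded 55.9% of the peaks of its list. Among the 13 constant regions, 4 were narrower in both KO libraries, 3 were wider in both and 6 overlapped. Over all constant regions 17.7% were narrower and 15.8% wider in both KO libraries. The 4 narrower ones lay in Ccnd2, Ccnd3 and Cdk6 (2 of them), and the 3 wider ones in Ccnd3, Cdkn1a and Rb1.

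**Figure D4:**
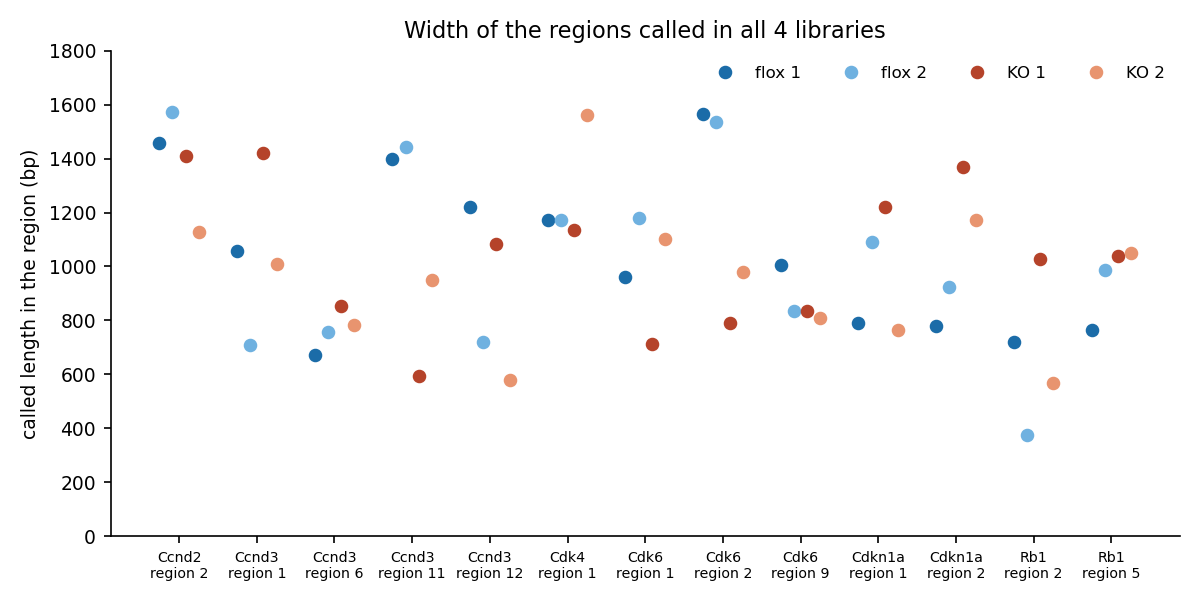
Called length in bp in each of the 13 regions of the G1 genes that all 4 libraries called, 1 point a library, with regions numbered along each gene by position. Region 11 of Ccnd3 and region 2 of Cdk6 show both KO points well below both flox points, and region 2 of Cdkn1a shows them above.

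Summed over the 10 genes, scaled called length was 24828 and 28563 bp in flox against 22410 and 18117 bp in KO, 26696 ± 2641 against 20263 ± 3036 bp (SD, n = 2 libraries). The KO sum was 75.9% of the flox sum, and no test was made of a sum over chosen genes. Without Ccnd3 and Cdk6 the sums were 10704 and 8745 bp in flox against 10061 and 10239 bp in KO, where the groups overlapped and KO stood at 104% of flox. These 2 genes were set aside after their values were seen.

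Of the 10 genes, 7 had the mean of 500 bp needed for limma's test and 3 had no called base. Of the 7, 0 passed an adjusted p of 0.05 and 0 had an unadjusted p under 0.05. Over all 14162 genes tested, limma called 0 (0.0%) at the adjusted threshold, and 869 (6.14%) had an unadjusted p under 0.05. Each KO library was lower than each flox library at 3 of the 7, Ccnd3, Cdk6 and Cdkn1a, and above them at none. Of all genes tested, 20.7% had the first order and 14.6% the second. The log2 difference was negative at 4 of the 7 and at 54.6% of all genes, with a median of -0.05 over the 7 and -0.04 over all. In the distribution over all genes, Ccnd3 stood at percentile 6.6 and Cdk6 at 8.9, while Cdkn2a and Rb1 stood at 90.9 and 86.2.

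Another 30 genes of the G1 phase and of entry into S phase were examined in the same way. Of these, 18 could be tested and 6 had no called base, 12 of the 18 were lower in KO and 6 higher, and the median log2 difference was -0.30. None passed the adjusted threshold (lowest limma adjusted p = 0.773), and 3 had an unadjusted p under 0.05, all with less in KO. Of all genes tested, 4.3% had such a p with less and 1.84% with more in KO. Cdkn1c, the third CIP/KIP inhibitor (chromosome 7), had 1974 and 1800 bp in flox against 586 and 761 bp in KO, a log2 difference of -1.02 (SE 0.28). Rbl1, a relative of Rb1 that binds repressive E2F factors (chromosome 2), had 3371 and 2458 bp against 1062 and 892 bp (-1.19, SE 0.28). Tfdp1, the dimer partner of E2F proteins (chromosome 8), had 4099 and 3755 bp against 2010 and 1103 bp (-1.13, SE 0.29). When peaks scored under 100 were left out, the difference at Tfdp1 was -0.39, while Cdkn1c, Rbl1 and E2f4 had too little called length to be tested. With 2000 bp added in place of 500 bp before the logarithm, the differences were -0.54 at Cdkn1c, -0.71 at Rbl1 and -0.74 at Tfdp1. At Cdkn1c, Rbl1 and Tfdp1 each KO library was lower than each flox library, and the limma adjusted p was 0.773 for each. These genes were named for their unadjusted p, which favours such an order. It held at 6 of the 18 genes tested, and the reverse order at 2. Over all genes tested the shares were 20.7% and 14.6%. With the number of peaks in place of called length, limma gave Cdkn1c, Tfdp1 and E2f4 an adjusted p of 7.47e-05. In that setting 1010 genes passed, and every one of them had the same number of peaks in both libraries of each group, so that its measured spread was 0.

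These 30 genes had 71 regions, of which 23 (32.4%) were called in all 4 libraries, 6 in both flox libraries alone and 3 in both KO libraries alone. Of all merged regions these shares were 39.5%, 2.96% and 3.0%. Of the 6, 2 lay at Rbl1 (chromosome 2, 157141835 to 157142452 and 157147289 to 157148436) and 1 each at Cdkn1c, E2f2, E2f4 and Tfdp1. E2f4, an E2F repressor gene named here after its values were seen, had 1157 and 1011 bp in flox and no called base in KO, all within the region at chromosome 8, 105303053 to 105304280 (adjusted p = 0.824). Of the 3 regions called in KO alone, 2 lay in Tfdp2, another E2F partner gene (chromosome 9), and 1 in the E2F activator gene E2f2. Tfdp2 had 4039 and 3662 bp in flox against 4592 and 5611 bp in KO, a log2 difference of 0.37 (SE 0.19) with an adjusted p of 0.831 from limma. The difference was 2.27 when peaks scored under 100 were left out and 1.98 with the top 50000 peaks by score. Neither passed limma's test (adjusted p = 0.789 and 0.732).

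**Figure D5:**
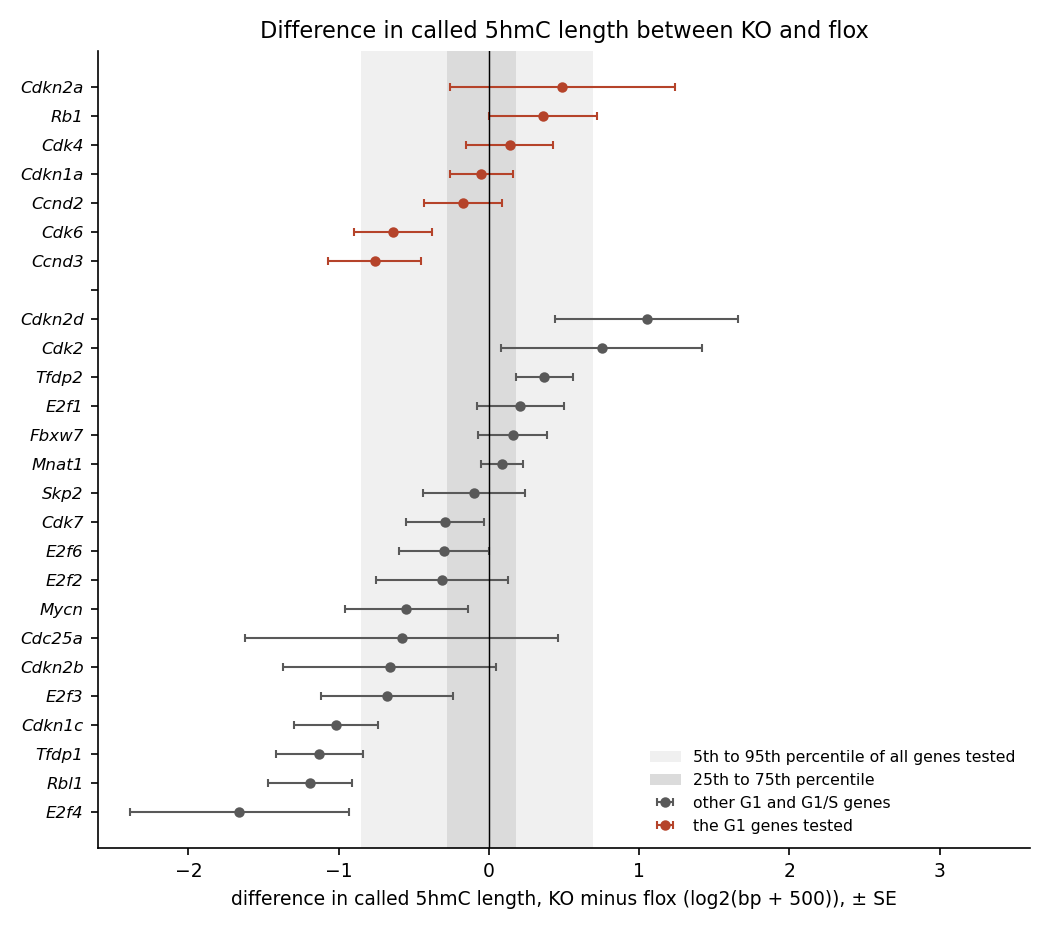
Difference in called 5hmC length, KO minus flox, on the log2(bp + 500) scale (points, with bars of 1 SE from limma) for the 7 G1 genes tested and 18 other genes of G1 and S phase entry. Grey bands run from the 25th to the 75th and from the 5th to the 95th percentile of all 14162 genes tested. Ccnd3 (-0.76) and Cdk6 (-0.64) lie between the bands' lower edges of -0.28 and -0.85, and E2f4, Rbl1, Tfdp1 and Cdkn1c lie below -0.85.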

How the data were processed

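DNA immunoprecipitated with a 5hmC antibody was analysed from 2 flox and 2 KO libraries, grouped by the sample titles, each with 14 PCR cycles and in lane 3 per the labels. Named in the submitters' processing notes are the build GRCm38 (mm10) and the tools MACS 1.4, Bowtie and CASAVA 1.8, without roles, settings or order. The control used for peak calling is not stated in the sources at hand. The files are peak lists of single libraries with start and end. Each deposited score equals -10 log10 of the deposited p-value (checked within 0.02), and both are the authors' values within 1 list.

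Peaks sharing at least 1 bp were merged over the 4 lists. Positions are on GRCm38, counted from 1, with gene spans and starts from RefSeq (GRCm38.p6). Exons and introns were not used here. Called length per gene (span plus 5 kb on both sides) was scaled to the same library total. For the 14162 genes whose mean reached 500 bp, limma 3.58.1 under R 4.3.3 (robust, with trend) compared log2(bp + 500) between the groups, and p-values were adjusted by Benjamini-Hochberg. The added 500 bp makes differences of genes with short called length too small. Values in bp by library are as called unless said to be scaled.

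The 10 genes and the gene lists were chosen with earlier results of these data known. Named were all 10 genes, neighbours that hold a region, and of 30 other genes those with an unadjusted p under 0.05 or the most regions of 1 group. Exceptions are said in the text. Alternatives were other peak thresholds, intervals, merging, pseudocounts, filters and scaling, peak numbers, blocking by replicate number, and fits without each library. Python 3.11.15, numpy 2.4.6, pandas 2.3.3 and matplotlib 3.10.9 were used.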

Additional observations from a re-analysis of the deposited data

How the results depend on the processing

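None of the 7 G1 genes that could be tested passed limma's test in any setting where it was tested. Ccnd3 kept its direction in all 15 alternatives (-1.18 to -0.34). Cdk4 was tested in 13 of these, Cdkn1a in 14 and Cdkn2a in 12. The number of genes past the threshold was 0 in every setting but one: by number of peaks it was 1010 of 16878, all with equal numbers within both groups. Directions turned with a score of at least 100 at Cdkn1a (0.09) and Rb1 (-0.04), with the 50000 highest scored peaks at Cdk6 (0.03) and Rb1 (-0.02), and with 10 kb flanks at Cdk4 (-0.04) and Cdkn2a (-0.17). With 1 library left out in turn, the difference ranged from -0.41 to 0.08 at Ccnd2, -0.02 to 0.31 at Cdk4, -0.55 to 1.54 at Cdkn2a, -0.08 to 0.80 at Rb1 and -0.87 to 0.26 at E2f2. The lone library of such a fit is assumed to vary like the others. The cause of these turns was not tested.

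Regions called in every library numbered 6 of 18 with a score of at least 100 and 5 of 15 with the 50000 highest scored peaks. Fewer peaks were used there, and the main setting had 13 of 40. With 1 library left out they numbered 14 to 15, of 31 to 40 regions. Flox-only regions numbered 0 in both stricter settings and 2 of 37 when peaks within 500 bp were merged. They numbered 2 to 10 with 1 library left out, which asks for presence in fewer libraries. KO-only regions then numbered 1 to 2. Shares over all regions of the genome were not at hand for these settings, so the counts have no background here. The log2 ratio of the summed length, -0.40, ranged from -0.56 to -0.25 with 1 library left out and from -0.52 to -0.32 in the other settings. Whether the replicate numbers pair a flox with a KO library is not known. The differences between replicates 1 and 2 in flox and in KO had a correlation of 0.006 over genes. This value cannot decide the question, since called lengths also differ between libraries for other reasons. With the replicate number as a block, 0 genes passed and 882 had an unadjusted p under 0.05, and no call changed. Depth was unknown, so which weak peaks are missing for lack of reads cannot be told.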
